A study of Drosophila melanogaster with 24 samples.

Results

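The genes described here encode subunits of the proteasome of Drosophila melanogaster. They were chosen by name: a probe was taken where its gene symbol, in the older or the current form, begins with Prosalpha, with Prosbeta, or with Rpn or Rpt and a digit. This gave 87 of the 45220 probes on the array, and 42 of the 12738 genes that have a named probe. Of these 42 genes, 27 are constitutive subunits and 15 are duplicate genes, whose symbols carry an R or a T. The genes were not chosen by any measured value. Of 48 genes in the reference annotation that meet the rule, 6 had no named probe and were not analysed here, namely Prosbeta1, Rpn9, Rpn10, Rpt1, Rpt6 and Rpt6R.

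The proteasome is the main protease of the cytosol and nucleus. Its core particle is a barrel of stacked rings, with alpha subunits in the outer rings that form the gate and beta subunits in the inner rings, some of which carry the proteolytic sites. A regulatory particle sits at the end of the barrel, where Rpt ATPases unfold the substrate and Rpn subunits bind and remove ubiquitin. Misfolded proteins of the endoplasmic reticulum (ER) are moved to the cytosol and degraded there by the proteasome. In Drosophila many core subunits have duplicate genes known for expression in the male germ line.

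Manf encodes a secreted, ER resident neurotrophic factor, and the study compared expression when it was missing, restored or overexpressed. Whole animals were pooled by genotype, and RNA was hybridised to Agilent 4x44K arrays in 6 groups of 4 samples. Larvae were zygotic Manf D96 mutants of 29 to 50 h after egg laying with maternal Manf product still present, larvae with ectopic Manf driven by 69B-GAL4 (29 to 44 h), and wild type larvae (29 to 45 h). Embryos, all of late stage 17, were maternal and zygotic (mz) Manf D96 mutants (21 to 24 h), maternal D96 mutants rescued by a paternal wild type allele, and wild type embryos. Wild type animals came from a cross of w1118 with w-, and all genotypes were in a w- background. The 69B-GAL4 driver is active broadly but not in fat body, so overexpression did not reach all cells. Since whole animals were used, fewer cells of a type and less RNA per cell cannot be told apart in any value below.

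Overexpressing larvae 69 and 70 were left out. They correlated with the other samples at 0.37 to 0.442 over all probes, where the remaining 22 samples correlated at 0.886 to 0.994. In these 2 libraries duplicate genes read up to 14.92 and constitutive genes down to 7.11 on the log2 scale. Manf itself, at its brighter probe, read 10.67, 10.46, 12.48 and 13.50 in mutant larvae, 14.23 and 14.40 in the remaining overexpressing larvae and 11.65, 11.59, 13.18 and 13.64 in wild type larvae. In mz mutant embryos it read 11.29, 10.12, 9.48 and 9.14, in rescued embryos 10.52, 10.63, 10.91 and 10.83, and in wild type embryos 11.10, 11.28, 11.48 and 11.25. The libraries labelled mz mutant embryo 1 and mutant larvae 65 and 66 thus lay within the wild type range of their stage. Replicate numbers fall in a low series, 1 to 4, and a high series, 63 to 88, treated as a batch, and mutant larva 65 lay below both wild type larvae of its own series. The counts of called members are also given without mz mutant embryo 1 and mutant larva 66, and without all 3. Other values include these libraries unless stated. Every wild type larva was labelled with Cy3 and no other larva was, so dye and genotype cannot be told apart in larvae, and of the wild type embryos only number 1 was not in Cy3, while no mz mutant embryo was. Markers for germ line, muscle, neurons, midgut, fat body, haemocytes and testis were compared between wild type larvae and wild type embryos. Act79B of muscle, Mal-A1 of midgut, srp and NimC1 of haemocytes, and betaTub85D and topi of testis were called lower in larvae. He of haemocytes was called higher. Over all genes 13.8% were called higher and 10.9% lower. Fold changes were positive in 4 of 7 muscle, 3 of 9 midgut, 6 of 10 haemocyte and 13 of 18 testis markers. They were positive in 5 of 8 germ line, 5 of 9 neuron and 2 of 7 fat body markers.

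All values are deposited log2 intensities, and a gene is given by its brightest probe. Probes differ in sensitivity, so readings are set against each other only within a probe, and those of different genes are given to show where on the scale they lay. The 27 constitutive genes had means over the 22 samples of 12.26 (Rpt2) to 14.33 (Prosbeta6), and the highest reading among them was 15.30, where the brightest probe of each sample read 14.75 to 15.56. In each of the 10 samples of the high series this top value was shared by 80 to 1576 probes, so a reading there is only a lower bound. In the 12 samples of the low series it was shared by 1 to 208 probes, none of them the brightest probe of a member. Of the members' readings at their brightest probe 8 were at the top value, namely Prosalpha1, Prosalpha3 and Prosbeta6 in wild type larva 63, Prosbeta5 in wild type larva 65, Prosbeta6 in mutant larva 65, and Prosalpha3, Prosbeta5 and Prosbeta6 in mutant larva 66. Of the 15 duplicates, 14 had means of 6.65 (Prosbeta4R2) to 9.21 (Rpn13R), and 8 of these lay below 7.04, the first quartile of all probe means, below which a probe is called dim here. The remaining duplicate, Prosalpha1R, averaged 13.03. Its probe carries an accession that the reference annotation gives to Prosalpha1, and a Prosalpha1 probe carries that of Prosalpha1R, so the signals of these genes may be mixed. No member gene lay next to another member in the annotation (0 of 42), so none shares signal through a neighbouring member.

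**Figure D1:**
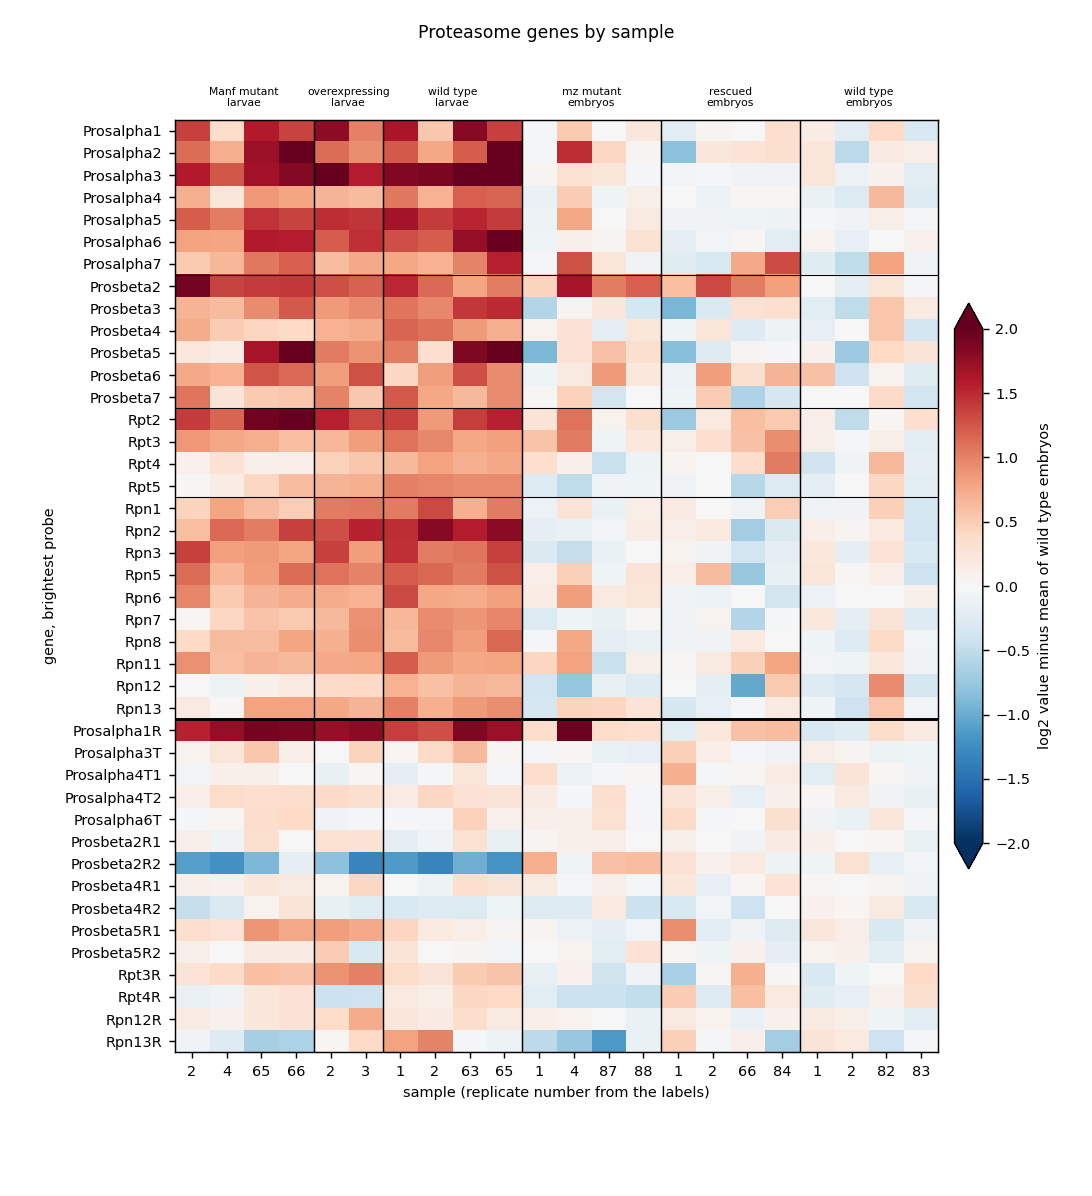
Log2 value of each of the 42 proteasome genes at its brightest probe, minus the mean of the wild type embryos (colour, cut at -2 and 2), with 1 column for each of the 22 samples and 1 row for each gene. The 27 constitutive genes stand above the thick line in the order alpha ring, beta ring, Rpt ATPases and Rpn subunits, the 15 duplicates below it. Larval columns are redder in the constitutive rows, while among the duplicates Prosalpha1R is red and Prosbeta2R2 blue in larvae.

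Wild type larvae were first set against wild type embryos, which asks how the proteasome genes differ between a feeding larva and an embryo about to hatch. Nearly the whole constitutive set was higher in larvae: all 27 genes had a positive log2 fold change, of 0.65 to 1.94 with a median of 1.03, and 22 passed the test (limma with Benjamini-Hochberg adjustment over all genes, adjusted p under 0.01). With Prosalpha1R, 23 of the 42 members were called higher and 1, Prosbeta2R2, was called lower. Over all 12738 genes 13.8% were called higher and 10.9% lower, and the median log2 fold change was 0.0046, against 0.90 over the 42 members. In 23 members every wild type larva read above every wild type embryo, which 19.5% of all genes did, and in 1 member every larva read below, as in 17.6% of all genes.

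In the alpha ring 6 of 7 genes were called higher, with a median of 1.34. Prosalpha3 read 14.93, 14.95, 15.06 and 15.11 in wild type larvae, against 13.31, 12.95, 13.16 and 12.86 in wild type embryos. Its log2 fold change was at least 1.94 (SE, the standard error of the fit, 0.15, adjusted p = 6e-09), since wild type larva 63 was at the top value of that sample, and the groups were far apart. Within the low series, where no member was at the top, Prosalpha3 changed by 1.81. Prosalpha6 read 14.15, 14.07, 14.62 and 14.84 in wild type larvae and 12.94, 12.70, 12.86 and 12.95 in wild type embryos, a change of 1.56 (SE 0.19, adjusted p = 3.25e-06). Prosalpha5 read 13.86, 13.60, 13.72 and 13.61 in wild type larvae and 12.17, 12.13, 12.32 and 12.18 in wild type embryos, a change of 1.50 (SE 0.15, adjusted p = 2.07e-07). Neither gene had a larva within the range of the embryos.

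Prosalpha1 and Prosalpha2 rose with a wider spread. Prosalpha1 read 14.87, 13.78, 15.06 and 14.61 in wild type larvae, against 13.39, 13.01, 13.65 and 12.93 in wild type embryos (log2 fold change at least 1.34, SE 0.28, adjusted p = 0.000992). Wild type larva 2 was the lowest larva and lay just above the highest embryo, and within the low series the change of 1.12 was not called. Prosalpha2 read 13.66, 13.20, 13.64 and 14.48 in wild type larvae and 12.67, 11.90, 12.59 and 12.56 in wild type embryos (log2 fold change 1.31, SE 0.35, adjusted p = 0.00677). Its call was lost without wild type embryo 2, 82 or 83 and without wild type larva 1, 63 or 65, with changes of 1.07 to 1.37. Prosalpha4 was called higher, with a change of 1.03 (SE 0.19). For Prosalpha7 the log2 fold change was 1.00 (SE 0.36, adjusted p = 0.0382), short of the threshold, though the mean of its probes gave 1.16 and was called.

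In the beta ring 4 of 6 genes were called higher, with a median of 1.04. Among subunits with a proteolytic site, Prosbeta2, the trypsin-like subunit, read 14.28, 13.92, 13.57 and 13.81 in wild type larvae, against 12.78, 12.58, 13.02 and 12.73 in wild type embryos (log2 fold change 1.12, SE 0.22, adjusted p = 0.000423). It was called at each of its 3 probes, with changes of 1.12 to 1.23. Prosbeta5, the chymotrypsin-like subunit, read 13.92, 13.23, 14.76 and 15.22 in wild type larvae and 12.98, 12.17, 13.29 and 13.15 in wild type embryos. Its change was of similar size, at least 1.39, but with the widest SE of the members, 0.46, it did not pass (adjusted p = 0.024). The samples of the high number series read higher than those of the low series in both groups, and the change was called within the high series alone (at least 1.78), with the series as a block (at least 1.39) and without wild type larva 2 (at least 1.74). Prosbeta6, the gene with the highest mean reading, had 14.19, 14.60, 15.06 and 14.70 in wild type larvae and 14.35, 13.34, 13.83 and 13.53 in wild type embryos. Wild type embryo 1, the only wild type sample in Cy5, lay among the larvae, and the gene missed the threshold (log2 fold change at least 0.87, SE 0.26, adjusted p = 0.0123). Without that embryo the change was at least 1.07 and was called, as it was without wild type larva 1 (at least 1.02), mz mutant embryo 87 or rescued embryo 1 (at least 0.87 in each), with the series as a block (at least 0.87) and within the high series (at least 1.20), while the low series gave 0.54 with no call. Prosbeta3, Prosbeta4 and Prosbeta7 were called higher, with changes of 1.23, 0.96 and 0.90.

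The regulatory particle changed in the same direction. Of the 4 measured Rpt ATPases, Rpt2, Rpt3 and Rpt5 were called higher. Rpt2 read 12.87, 12.34, 12.88 and 13.05 in wild type larvae, against 11.63, 10.98, 11.53 and 11.82 in wild type embryos (log2 fold change 1.29, SE 0.29, adjusted p = 0.00167), with no overlap. Rpt5 was especially even in wild type larvae, which read 14.27, 14.24, 14.20 and 14.21, against 13.06, 13.26, 13.67 and 13.05 in wild type embryos (log2 fold change 0.97, SE 0.16, adjusted p = 9.41e-05). For Rpt4 the change was 0.73 (SE 0.22, adjusted p = 0.0146), and it was called without wild type embryo 82 (0.95), without rescued embryo 84 (0.73), within the low series (0.95) and with the mean of its probes (0.97).

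Of the 10 Rpn genes 9 were called higher. Rpn2, a large scaffold subunit at the base of the regulatory particle, read 14.16, 14.49, 14.25 and 14.48 in wild type larvae and 12.80, 12.73, 12.87 and 12.29 in wild type embryos (log2 fold change 1.67, SE 0.19, adjusted p = 1.46e-06). It changed more than any other regulatory particle gene. The companion scaffold Rpn1 was higher by 1.03, and Rpn3 and Rpn5, structural subunits of the lid, by 1.23 and 1.17. Rpn11, the deubiquitinase of the lid, and its partner Rpn8 were higher by 0.91 and 0.90, and Rpn13, a ubiquitin receptor, by 0.88. Rpn6 and Rpn7 were higher by 0.91 and 0.87. For Rpn12 the change was 0.65 (SE 0.28, adjusted p = 0.0789). Wild type embryo 82 read 14.71 for it, against 13.41 to 13.51 in the other wild type embryos, and without this embryo the change was 0.97 and was called (adjusted p = 0.00374), as it was within the low series (0.94) and with the mean of its probes (0.73).

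The direction did not rest on the probe chosen. The 27 constitutive genes had 62 probes in all, and each of the 62 had a positive log2 fold change, with 42 called over all probes (16.1% of all probes were called in either direction). Of the 23 genes with 2 or more probes, 12 were called at every probe and 20 at 1 or more. The dye was nearly balanced here, with Cy3 in all wild type larvae and in 3 of the 4 wild type embryos. All 27 constitutive genes remained positive within the low series (16 called, median 1.10) and within the high series (15 called, median 0.93). With overexpressing larvae 69 and 70 in the fit, 9 constitutive genes were called, with the same median of 1.03.

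This pattern was not seen among the duplicate genes. Of the 15, only Prosalpha1R was called higher and only Prosbeta2R2 lower, and the other 13 had log2 fold changes of -0.23 (Prosbeta4R2) to 0.43 (Rpt3R), none of them called. All of these 13 but Rpn13R had means of 6.65 (Prosbeta4R2) to 7.58 (Rpt3R), near the low end of the scale. A change like that of the constitutive genes could be missed there, so the lack of calls does not show that they differ. Prosalpha1R read 13.46, 13.37, 13.94 and 13.80 in wild type larvae, against 11.77, 11.83, 12.44 and 12.25 in wild type embryos (log2 fold change 1.57, SE 0.29, adjusted p = 0.000306), a change like that of Prosalpha1, with which its signal may be mixed. Without these 2 genes 21 of the remaining 40 members were called higher. Prosbeta2R2, a duplicate of the trypsin-like subunit, read 7.00, 6.81, 7.15 and 6.95 in wild type larvae and 8.04, 8.43, 7.97 and 8.08 in wild type embryos. All larvae lay below all embryos, with a log2 fold change of -1.15 (SE 0.21, adjusted p = 0.000209), and the gene's other probe gave -1.05. The mean of the wild type larvae, 6.98, lay below the limit for dim probes, so the fall is only a lower bound. Prosbeta4R2, the dimmest member, read 6.50, 6.54, 6.53 and 6.71 in wild type larvae and 6.89, 6.84, 6.97 and 6.49 in wild type embryos, near the lowest reading of the samples, 6.05. The log2 signal summed over 18 testis markers was 13.82 to 14.54 in wild type larvae and 13.77 to 14.11 in wild type embryos, and 6 of the 18 in larvae and 7 in embryos lay below the limit for dim probes. The sum rests mostly on bol, which read 13.31 to 14.28 in wild type larvae and 13.22 to 13.74 in wild type embryos. No testis marker was called higher and 2 were called lower, topi with a log2 fold change of -0.94 and betaTub85D with -0.95, which read 8.08, 7.96, 7.64 and 7.85 in wild type larvae and 8.80, 8.44, 9.12 and 8.96 in wild type embryos. Their part in the duplicates' values was not tested.

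The same stage comparison was made between Manf mutant larvae and mz mutant embryos, which carried the same dyes within the same number series. These groups differ in more than stage, since the mz mutant embryos lacked maternal Manf product and the mutant larvae had it. The changes had the same direction but were smaller. All 27 constitutive genes were again positive, with log2 fold changes of 0.18 to 1.44 and a median of 0.55. Over the 42 members the median was 0.50, against 0.042 over all genes. Of the 42 members 7 were called higher, a share near the 13.5% of all genes, and 1 lower, against 10.3%. Every mutant larva read above every mz mutant embryo in 17 members (16.8% of all genes) and below in 1 (12.7%). The 7 were Prosalpha3, Prosalpha5, Prosalpha6, Prosbeta3, Rpt2, Rpn2 and Rpn3, each of them also called between wild type larvae and wild type embryos. The gene called lower was Prosbeta2R2.

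Prosalpha3 read 14.66, 14.31, 14.75 and 14.90 in mutant larvae, against 13.13, 13.38, 13.31 and 13.05 in mz mutant embryos (log2 fold change at least 1.44, SE 0.15, adjusted p = 3.62e-07), and changed by 1.23 within the low series. Rpt2 read 12.90, 12.65, 13.42 and 13.60 in mutant larvae and 11.75, 12.58, 11.56 and 11.81 in mz mutant embryos (log2 fold change 1.22, SE 0.29, adjusted p = 0.00289). Here mz mutant embryo 4 read almost as high as the lowest larva, and the call was lost without mz mutant embryo 87 or mutant larva 65 or 66 (1.06 to 1.12). Rpn3 read 14.95, 14.40, 14.43 and 14.37 in mutant larvae and 13.29, 13.11, 13.45 and 13.57 in mz mutant embryos (log2 fold change 1.18, SE 0.18, adjusted p = 3.28e-05). Prosalpha6 changed by 1.09, with 13.67, 13.66, 14.46 and 14.43 in mutant larvae and 12.78, 12.97, 12.92 and 13.17 in mz mutant embryos. Rpn2 changed by 1.08, with 13.28, 13.81, 13.69 and 14.04 in mutant larvae and 12.49, 12.54, 12.62 and 12.83 in mz mutant embryos. In both genes the groups did not overlap.

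Prosalpha5 read 13.42, 13.22, 13.65 and 13.55 in mutant larvae and 12.10, 12.98, 12.22 and 12.38 in mz mutant embryos, a change of 1.04 (SE 0.15, adjusted p = 1.96e-05). Prosbeta3 read 12.60, 12.54, 12.87 and 13.14 in mutant larvae and 11.33, 11.97, 12.14 and 11.57 in mz mutant embryos, a change of 1.03 (SE 0.27, adjusted p = 0.00516) that was not called without mz mutant embryo 1 or 88 or mutant larva 65 or 66 (0.89 to 1.01). Of the mz mutant embryos, number 4 was the closest to the larvae in Prosalpha5. Its Prosalpha2 reading of 13.90 and its Prosalpha1R reading of 14.04 lay within or above the range of mutant larvae, and its median over the 27 constitutive genes was 13.66, against 13.19 to 13.29 in the other mz mutant embryos. Prosbeta2R2 read 7.03, 6.92, 7.23 and 7.95 in mutant larvae and 8.83, 8.04, 8.72 and 8.74 in mz mutant embryos, a change of -1.30 (SE 0.21, adjusted p = 7.07e-05), and -1.51 at its other probe, where all mutant larvae lay below the limit for dim probes. Without the libraries labelled mz mutant embryo 1 and mutant larva 66, 5 members were called higher, and 26 of 27 constitutive genes were positive with a median of 0.49. With mutant larva 65 left out as well, 3 were called higher and 25 of 27 were positive, with a median of 0.43. The mean of each gene's probes in place of the brightest gave 18 called higher.

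**Figure D2:**
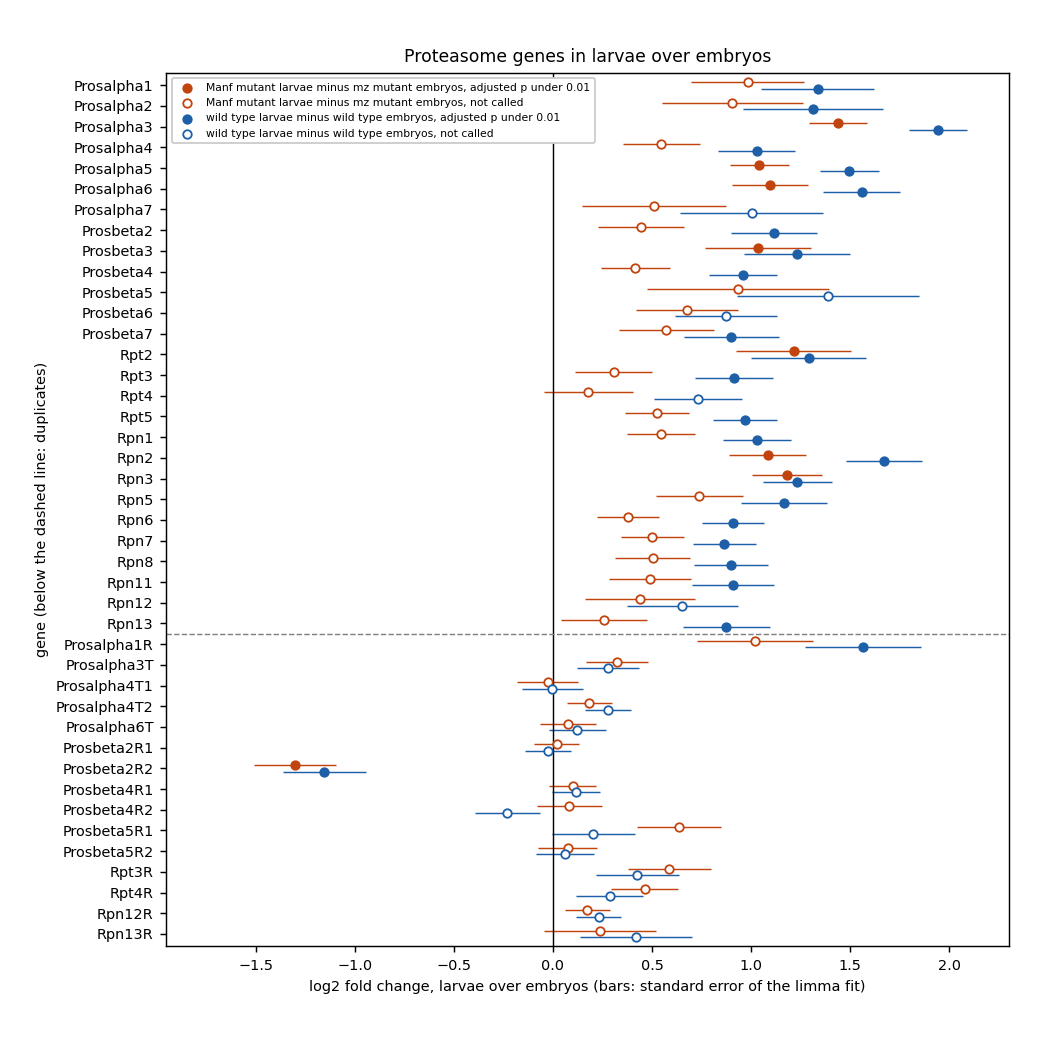
Log2 fold change of larvae over embryos (horizontal axis) with the standard error of the limma fit (bars), for each of the 42 genes, in Manf mutants (orange) and wild type (blue). Filled points have an adjusted p under 0.01. All 27 constitutive genes lie right of 0 in each pair and the blue point lies right of the orange one in each of these 27 rows, and of the duplicates, below the dashed line, Prosbeta2R2 lies far to the left in each pair.

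In all 27 constitutive genes the stage change was smaller in the mutant pair than in the wild type pair. Over these genes the stage changes of the pairs correlated with r = 0.88 and rho = 0.81 (a description over 27 genes that share arrays, with no test). The difference of these stage changes is called the interaction of mutation and stage here. Since the mz mutant embryos lacked maternal Manf and the mutant larvae did not, stage and maternal product cannot be told apart in it. The difference was negative in 35 of 42 members, with a median of -0.36 over members and 0.033 over all genes. At single probes it was positive in 3 of the 62 constitutive probes. No member passed the test of this difference (0 of 42, where 1.42% of all genes were called and 7 members and 13.6% of all genes had an unadjusted p under 0.05). By p the first were Prosalpha3 with -0.50 (SE 0.21, adjusted p = 0.26), Rpn6 with -0.53 (SE 0.22, adjusted p = 0.264) and Prosbeta4 with -0.54 (SE 0.24, adjusted p = 0.322). Prosalpha3 was at the top value in wild type larva 63 and in mutant larva 66, so its value is bounded in neither direction. Without mz mutant embryo 1 and mutant larva 66 all 27 constitutive genes were again negative, with a median of -0.51 and no call, and with mutant larva 65 left out too 26 were, with a median of -0.58 and no call. The direction was less uniform within the series: 25 of 27 constitutive genes were negative in the low series (median -0.68) and 21 in the high series (median -0.22). The mutant pair carried matched dyes and the wild type pair differed in dye only at wild type embryo 1, and with dye as a covariate all 27 constitutive genes were negative, with a median of -0.45. Member readings at the top value of a sample occurred only in the high series. Among mutant larvae the number series also differed in dye and collection window. The part of dye, top readings and collection window in this difference was not tested.

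Mutant larvae were then compared with wild type larvae, which asks what the loss of zygotic Manf did after hatching. No proteasome gene passed the test (0 of 42), while 2.71% of all genes did. An unadjusted p under 0.05 was found in 9 members and in 16.3% of all genes. The constitutive genes nevertheless lay mostly on the lower side, with 23 of 27 negative and a median of -0.30, against a median of -0.017 over all genes. All 10 Rpn genes were negative, with values of -0.64 to -0.18. In 6 constitutive genes every mutant larva read below every wild type larva, which 7.86% of all genes did. The duplicates had a median of 0.04, but most of them read near the low end of the scale, where a shift could be missed. The furthest among them was Rpn13R, with 9.24, 9.05, 8.64 and 8.68 in mutant larvae and 10.12, 10.29, 9.29 and 9.21 in wild type larvae (log2 fold change -0.82, adjusted p = 0.107, and -0.78 at its other probe).

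Rpt5, an ATPase of the regulatory particle, was nearest to the threshold. It read 13.28, 13.40, 13.67 and 13.87 in mutant larvae, against 14.27, 14.24, 14.20 and 14.21 in wild type larvae. All mutant larvae lay below all wild type larvae, with a log2 fold change of -0.68 (SE 0.16, adjusted p = 0.0159), and the gene's other probe gave -0.54. The overexpressing larvae read 13.94 and 13.98, in between. The change was called within the low series alone (-0.92, adjusted p = 0.00885) and without the library labelled mutant larva 66 (-0.78, adjusted p = 0.00918) or without wild type embryo 82 (adjusted p = 0.00905), but with mz mutant embryo 1 and mutant larva 66 left out no member was called, and 24 of 27 constitutive genes were negative (median -0.35). With mutant larva 65 left out as well, Rpt5 was called (-0.89, SE 0.19, adjusted p = 0.00792) and 26 of 27 were negative (median -0.41). Rpn2 read 13.28, 13.81, 13.69 and 14.04 in mutant larvae and 14.16, 14.49, 14.25 and 14.48 in wild type larvae (log2 fold change -0.64, SE 0.19, adjusted p = 0.0591), while its other probe gave 0.23 (SE 0.43), the opposite sign. Rpn7 read 13.41, 13.79, 13.95 and 13.90 in mutant larvae and 14.05, 14.32, 14.26 and 14.36 in wild type larvae (log2 fold change -0.48, SE 0.16, adjusted p = 0.0935), and -0.32 at its other probe. Neither gene had overlapping groups at its brightest probe. With larvae fitted apart from embryos 2 other members were called lower, Rpt4 with -0.58 (adjusted p = 0.00465) and Rpn12 with -0.60 (adjusted p = 0.00513).

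As a median over the 27 constitutive genes, mutant larvae read 13.77, 13.79, 14.14 and 14.15, overexpressing larvae 14.07 and 14.16, and wild type larvae 14.24, 14.25, 14.27 and 14.39. The mutant larvae of the low series were the lowest. Those of the high series lay within the range of the overexpressing larvae and below both wild type larvae of their own series, 14.27 and 14.39. Against wild type larvae, 24 of 27 constitutive genes were negative within the low series (median -0.37) and 23 within the high series (median -0.26). Mutant larvae 2 and 4, of the low series, were collected at 29 to 50 h and 31 to 50 h and labelled with Alexa488. Mutant larvae 65 and 66 were of 30 to 44 h and labelled with Cy5, and their Manf readings lay within the wild type range. Series, collection window and dye thus cannot be told apart among mutant larvae. Readings of markers of other tissues also lay apart. Fold changes of all 9 neuron markers were negative, with a summed log2 signal of 15.59 to 15.79 in mutant larvae and 15.87 to 16.21 in wild type larvae, and those of all 9 midgut markers positive, with 17.64 to 17.89 in mutant larvae and 16.75 to 17.28 in wild type larvae. None of the neuron markers and 1 of the midgut markers, Mal-A1, passed the test, and Mal-A1 had a log2 fold change of 1.37. Of the other marker lists, Cyp6a2 of the fat body (2.62) and Hml of haemocytes (1.41) were called higher in mutant larvae. Called lower were eater of haemocytes (-0.87) and sa of the testis (-0.97). These calls do not give the direction of their lists, and 2.71% of all genes were called. Fold changes were positive in 4 of 7 fat body, 3 of 10 haemocyte and 10 of 18 testis markers. The part of these tissues in the lower readings was not tested.

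Overexpressing larvae were also compared with wild type larvae. No member was called (0 of 42), and 0.714% of all genes were, with only overexpressing larvae 2 and 3 in the group. Of the members 4 had an unadjusted p under 0.05, as did 13.8% of all genes, and 22 of the 27 constitutive genes were negative with a median of -0.15. The smallest p belonged to Rpt4R, a duplicate of the ATPase Rpt4, which read 6.95 and 6.97 in overexpressing larvae, against 7.58, 7.51, 7.80 and 7.77 in wild type larvae (log2 fold change -0.71, SE 0.21, adjusted p = 0.0861). The overexpressing larvae lay below the limit for dim probes, so the size is uncertain. Rpn12R read 7.34 and 7.71 in overexpressing larvae and 7.20, 7.13, 7.32 and 7.15 in wild type larvae (log2 fold change 0.33, SE 0.14, adjusted p = 0.293). Prosbeta2R1 read 6.95 and 6.93 in overexpressing larvae and 6.46, 6.57, 6.94 and 6.49 in wild type larvae, all below the limit for dim probes, so no fold is given (adjusted p = 0.307). The other probes of Rpt4R and Rpn12R each gave -0.01. The readings of these 3 genes all lay near the low end of the scale. Every overexpressing larva lay above every wild type larva in 3 members (17.7% of all genes) and below in 7 (19.3%).

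Mutant larvae set against overexpressing larvae gave no call either (0 of 42, with 3.79% of all genes called, and 3 members and 23.9% of all genes at an unadjusted p under 0.05). The median over the constitutive genes was -0.14. Rpn12R read 7.12, 7.05, 7.20 and 7.26 in mutant larvae and 7.34 and 7.71 in overexpressing larvae (log2 fold change -0.37, SE 0.14, adjusted p = 0.108). Rpt4R read 7.25, 7.31, 7.60 and 7.68 in mutant larvae and 6.95 and 6.97 in overexpressing larvae (log2 fold change 0.50, SE 0.21, adjusted p = 0.142). Its overexpressing larvae lay below the limit for dim probes, so the size is uncertain. Rpn1 read 13.48, 13.82, 13.66 and 13.53 in mutant larvae and 14.07 and 14.09 in overexpressing larvae (log2 fold change -0.46, SE 0.21, adjusted p = 0.188). In each of these 3 genes the groups did not overlap at the brightest probe, as in 10 members in all, with 19.4% of all genes above and 19.3% below. The other probe of Rpn12R gave -0.14, that of Rpt4R -0.16, the opposite sign with overlapping groups, and those of Rpn1 gave -0.21 and -0.11.

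**Figure D3:**
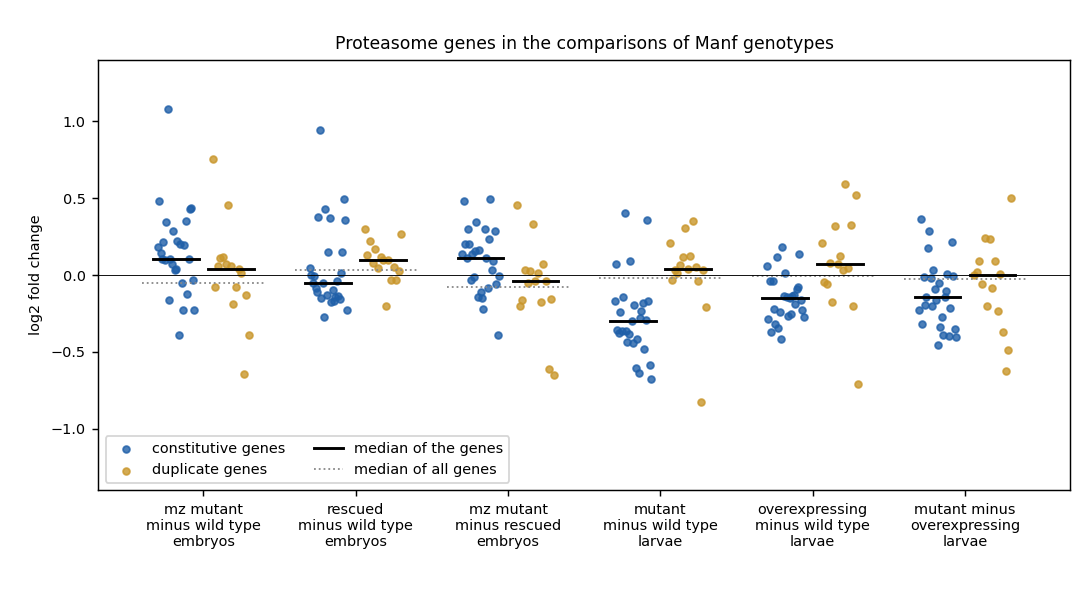
Log2 fold change (vertical axis) of the 27 constitutive genes (blue) and 15 duplicates (ochre) in the 6 comparisons of Manf genotypes, with the median of each kind (black bars) and of all genes (dotted line). The constitutive median is lowest, at -0.30, in mutant minus wild type larvae, and Prosbeta2 stands at the top in mz mutant minus wild type embryos with 1.08 and in rescued minus wild type embryos with 0.94.

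In embryos, mz mutants were compared with wild type to see what the full loss of Manf did. Here 1 member passed, Prosbeta2, which was higher (1 of 42, where 3.82% of all genes were called higher and 2.65% lower). The median was 0.085 over the members, against -0.052 over all genes, and 7 members and 25.7% of all genes had an unadjusted p under 0.05. Prosbeta2 read 13.23, 14.42, 13.80 and 13.97 in mz mutant embryos, 13.38, 14.10, 13.79 and 13.61 in rescued embryos and 12.78, 12.58, 13.02 and 12.73 in wild type embryos. Every mz mutant embryo lay above every wild type embryo, as in 1 other member and 6.33% of all genes, with a log2 fold change of 1.08 (SE 0.22, adjusted p = 0.00248), and 1.29 without the library labelled mz mutant embryo 1.

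This change was called at 1 of the 3 Prosbeta2 probes, where 4.19% of all probes were called in either direction. The second probe gave 12.85, 12.96, 12.85 and 13.09 in mz mutant embryos and 13.36, 12.99, 12.84 and 12.37 in wild type embryos, a log2 fold change of 0.05 (SE 0.25). The third gave 12.83, 12.65, 12.70 and 13.05 in mz mutant embryos and 12.95, 12.90, 12.54 and 12.24 in wild type embryos, a log2 fold change of 0.15 (SE 0.24). In wild type larvae over wild type embryos each of the 3 probes was called. With the mean of the 3 probes the change was 0.42 and was not called. The call was also lost, at a change as large or larger, within the low series (1.14) and when dye was added to the model (1.24), and it was lost without wild type embryo 2 (1.01) and without mz mutant embryo 4 (0.89).

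**Figure D4:**
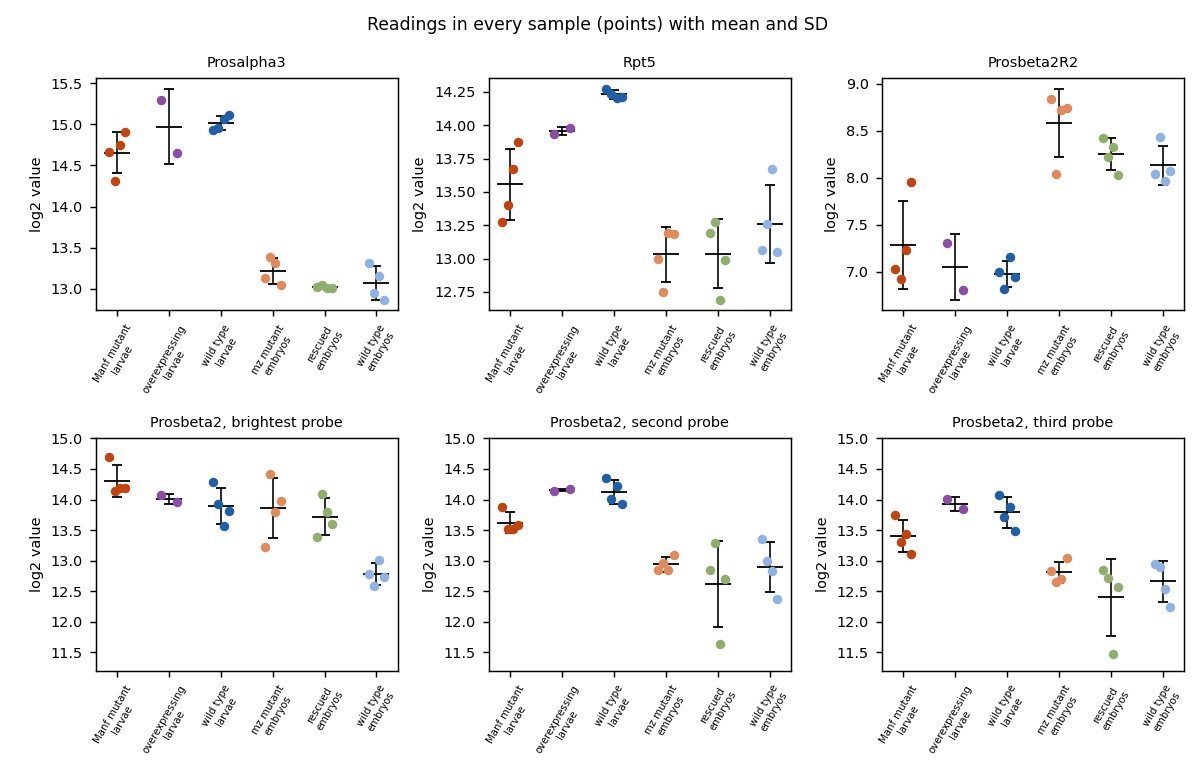
Log2 readings of each sample (points) with the group mean and SD (bars) for Prosalpha3, Rpt5 and Prosbeta2R2 at their brightest probe and for Prosbeta2 at its 3 probes, over the 6 groups. Prosalpha3 lies higher and Prosbeta2R2 lower in all larvae than in all embryos, Rpt5 is highest in wild type larvae, and wild type embryos lie below the mz mutant and rescued embryos at 1 Prosbeta2 probe only.

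Rescued embryos, which had no maternal Manf but a paternal copy, gave no call against wild type embryos (0 of 42, with 0.165% of all genes called, and 2 members and 5.24% of all genes at an unadjusted p under 0.05). Prosbeta2 came first again at its brightest probe, with the readings given above and a log2 fold change of 0.94 (SE 0.22, adjusted p = 0.0797), and its rescued and wild type embryos did not overlap, while its other probes gave -0.27 and -0.26. Rpt3 read 13.65, 13.86, 14.12 and 14.46 in rescued embryos and 13.64, 13.51, 13.64 and 13.32 in wild type embryos, the only other member without overlap (2.38% of all genes had every rescued embryo above; log2 fold change 0.49, SE 0.20, adjusted p = 0.714), and its other probes gave -0.23 and -0.13. Rpn11 read 13.59, 13.75, 14.05 and 14.36 in rescued embryos and 13.51, 13.48, 13.78 and 13.50 in wild type embryos (log2 fold change 0.37, SE 0.21), and the mean of its probes gave -0.09. The comparisons of mz mutant and of rescued embryos share the wild type embryos.

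Between mz mutant and rescued embryos no member was called (0 of 42, with 4.01% of all genes called, and 3 members and 24.4% of all genes at an unadjusted p under 0.05). Rpt4R read 7.17, 6.96, 6.96 and 6.90 in mz mutant embryos and 7.89, 7.13, 7.99 and 7.58 in rescued embryos. The mean of the mz mutant embryos, 7.00, lay below the limit for dim probes, so the sizes of the changes of Rpt4R are uncertain. Its log2 fold change of -0.65 (SE 0.17, adjusted p = 0.018) was called with the number series as a block (adjusted p = 0.00584), within the high series (-0.86) and without rescued embryo 2 (-0.82, adjusted p = 0.00229), and its other probe gave -0.25. Rpn6, which clamps the lid to the core, read 13.08, 13.76, 13.11 and 13.17 in mz mutant embryos and 12.85, 12.82, 12.92 and 12.56 in rescued embryos (log2 fold change 0.49, SE 0.16, adjusted p = 0.049), with all mz mutant embryos above all rescued embryos, as in 1 other member and 3.89% of all genes, and its other probes gave 0.45 and 0.56. Rpn13R read 8.78, 8.55, 8.16 and 9.18 in mz mutant embryos and 9.79, 9.28, 9.41 and 8.62 in rescued embryos (log2 fold change -0.61, SE 0.28, adjusted p = 0.188), and -0.53 at its other probe. As a median over the constitutive genes, mz mutant embryos read 13.19, 13.66, 13.24 and 13.29, rescued embryos 13.19, 13.30, 13.00 and 13.39, and wild type embryos 13.17, 13.01, 13.64 and 13.13, so that the 3 groups of embryos overlapped.

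Genes that work with the proteasome were described by 4 lists. Of 14 measured regulators and partners of the proteasome, 6 were higher and 1 lower in wild type larvae than in wild type embryos, with a median of 0.64, where 13.8% of all genes were called higher and 10.9% lower. The largest change was in Uch-L5, a deubiquitinase that docks on Rpn13. It read 13.82, 13.64, 13.67 and 13.49 in wild type larvae, against 11.94, 11.55, 11.77 and 11.30 in wild type embryos (log2 fold change 2.01, SE 0.14, adjusted p = 1.36e-09). Sem1, a small lid subunit, Usp14, another deubiquitinase of the proteasome, and Pomp, which helps to assemble the core, were higher by 1.35, 1.07 and 1.04. Keap1, known as a repressor of the transcription factor cnc, was lower, with a log2 fold change of -0.99 (SE 0.24, adjusted p = 0.00339), and cnc was not called (adjusted p = 0.917). Between mutant larvae and mz mutant embryos 5 of these genes were higher and 1 lower (13.5% and 10.3% of all genes), with Uch-L5 at 1.14 and Keap1 at -1.28.

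Uch-L5 was also the only gene of this list called in a comparison of genotypes. It was 1 of 14 between mutant and wild type larvae, where 2.71% of all genes were called. It read 13.19, 12.87, 13.06 and 12.99 in mutant larvae, against 13.82, 13.64, 13.67 and 13.49 in wild type larvae, with a log2 fold change of -0.63 (SE 0.14, adjusted p = 0.00841) and no overlap. The overexpressing larvae read 13.42 and 13.47. Its interaction of mutation and stage was -0.87 (SE 0.19, adjusted p = 0.0131).

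The COP9 signalosome, a complex related to the proteasome lid that removes Nedd8 from ubiquitin ligases, resembled the constitutive subunits in direction. Of 9 measured genes 7 were higher in wild type larvae than in wild type embryos, with a median of 1.14, and 7 in mutant larvae than in mz mutant embryos, with a median of 0.98 (13.8% and 13.5% of all genes were called higher). CSN3 changed by 1.49 (SE 0.14, adjusted p = 1.13e-07) in wild type and by 1.23 in mutants, and CSN5, the catalytic subunit, by 1.39 and 1.31. Of the 16 genes of ER associated degradation, 6 were higher in wild type larvae, against 13.8% of all genes, among them Plap with 2.23, Npl4 with 1.53, p47 with 1.34 and TER94, the ATPase that extracts proteins from the ER membrane, with 1.17. In mutant larvae over mz mutant embryos 5 were higher, against 13.5% of all genes, with Plap at 1.69 and Npl4 at 0.85. Edem1, a lectin of this pathway, was lower in mutant than in overexpressing larvae, with 8.46, 8.14, 8.52 and 8.44 in mutant larvae and 9.65 and 9.46 in overexpressing larvae (log2 fold change -1.17, SE 0.20, adjusted p = 0.00125). It was the only 1 of the 16 called there, where 3.79% of all genes were called. Of 10 ubiquitin and conjugating enzyme genes only Ubc2 was called, higher by 1.48 in wild type larvae than in wild type embryos, a share near the 13.8% of all genes. No gene of the 4 lists was called between the 3 groups of embryos, where 3.82% of all genes were called higher and 2.65% lower in mz mutant than in wild type embryos, 0.165% were called between rescued and wild type embryos and 4.01% between mz mutant and rescued embryos.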

How the data were processed

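Whole embryos and larvae of 6 groups with 4 samples each were compared as labelled. The authors scanned the arrays, read median intensities per spot in GenePix Pro 6.0 and used limma for preprocessing, whose version is not given in the sources used here. The deposited log2 values were used unchanged for 45220 probes, with no missing value and sample medians of 9.15. Spot background was not used, so the precision of a spot cannot be given, and the number of samples limits the precision. Samples of different dyes may have shared an array, in which case they were not hybridised independently.

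Probes were named from the platform annotation, updated with the RefSeq genes of Release 6 by gene identifier (28743 probes), by accession (220) or left as they were (909), and 15348 had no gene name. Members and lists were chosen with earlier results of these data known. The text names the active site subunits, up to 8 called members of largest change per comparison (or the 3 of smallest p), called duplicates, and the members of highest and lowest mean.

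With limma 3.58.1 in R 4.3.3, 1 model of 6 group means was fitted to 22 samples over all probes. P values were adjusted by Benjamini and Hochberg over 12738 genes, each at its brightest probe, with a threshold of 0.01 as in the methods. The fit was tested on simulated data. The stage comparison in mutants, the counts without libraries of doubtful Manf reading and those without Prosalpha1 and Prosalpha1R were added after seeing the data. The methods state fewer independent samples per genotype than the labels give. Collection windows differ between some samples of a group, and whether samples of the same window were collected separately is not stated, so there p values measure only the spread between these samples.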

Additional observations from a re-analysis of the deposited data

Results flagged for a closer look

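Within each group of 4, samples were marked where 1 reading lay far from the other 3. This held for 14 of 210 groups over the 42 genes, where chance gives about 1 in 20. The mz mutant embryo 4 read 14.04 for Prosalpha1R (others 12.41 to 12.45), 13.76 for Rpn6 (others 13.08 to 13.17) and 8.04 for Prosbeta2R2 (others 8.72 to 8.83). Mutant larva 2 read 14.69 for Prosbeta2 (others 14.13 to 14.19), 14.95 for Rpn3 (others 14.37 to 14.43) and 6.95 for Prosalpha4T2 (others 7.16 to 7.18). Prosalpha2 was low in rescued embryo 1 with 11.62 (others 12.65 to 12.74) and in wild type embryo 2 with 11.90 (others 12.56 to 12.67). Rpn6 was high in wild type larva 1 with 14.24 (others 13.67 to 13.74), and Prosbeta5R1 in rescued embryo 1 with 7.76 (others 6.59 to 6.77). Wild type embryo 82 was marked in 4 genes: it read 14.19 for Prosalpha4 (others 13.28 to 13.42), 13.78 for Rpn11 (others 13.48 to 13.51), 14.71 for Rpn12 (others 13.41 to 13.51) and 6.67 for Prosbeta5R2 (others 6.94 to 7.00). No explanation of these readings was tested.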

How the results depend on the processing

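The number of members called was recomputed under other fits, by leaving out each sample in turn and without libraries of doubtful Manf reading. Between wild type larvae and wild type embryos 24 members were called in the main fit, and 11 (10 higher) with all 24 samples. Between mutant larvae and mz mutant embryos 8 were called, against 5 with all 24 samples or within the low series, 13 within the high series, 19 with the mean over all probes of a gene and 20 at an adjusted p under 0.05. Between mz mutant and wild type embryos the count of 1 became 0 with all 24 samples, within the low series, with dye as a covariate, with embryos fitted apart and with probe means. Between mz mutant and rescued embryos the count of 0 became 1 with the number series as a block or within the high series and 2 at 0.05. Between mutant and wild type larvae it became 1 within the low series or at 0.05 and 2 with larvae fitted apart. Leaving out single samples gave 21 to 25 calls for wild type larvae over embryos, 6 to 12 for mutant larvae over mz mutant embryos, and 0 to 1 for mz mutant over wild type embryos, mz mutant over rescued embryos and mutant over wild type larvae. The counts of 0 for the other 4 comparisons stayed at 0 under every alternative. Rpn11 in rescued over wild type embryos had the opposite sign, -0.090, with the mean of its probes. Without the libraries labelled mz mutant embryo 1 and mutant larva 66, 6 members were called between mutant larvae and mz mutant embryos, and the counts of the other comparisons did not change. With mutant larva 65 left out as well this count was 4 (3 higher), and 1 was called between mutant and wild type larvae, with no other change. The causes were not tested.

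Samples of the same number did not stand out as pairs: of 19 pairs in different groups 14 had deviations that correlated above 0.1, with a median of 0.28, and 0 of 15 samples correlated best with its own number. Pairs of other numbers in the same series had a median of 0.219, and some of different dyes correlated far more strongly. Wild type embryo 83 and rescued embryo 66 reached 0.87, and wild type larva 1 and mutant larva 2 reached 0.70. The methods hybridised differently labelled RNA, but the labels used here do not say which samples shared an array. Whether such samples pair was not tested, and no fit took it into account. With the replicate number as a random block (estimated correlation 0.219) 25 members were called between wild type larvae and wild type embryos (24 higher).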
